A study of Mus musculus with 15 samples.

Results

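The collagen genes are the members described here: every entry of the deposited expression table whose symbol has the form Col, a number, the letter a and a number. The rule found 44 genes among 23244 entries, and 40 of them reached the level needed for a test, which was at least 1 CPM (reads counted, scaled to library size), taken relative to the column total, in at least 3 of the 15 libraries. Of the 40, Col4a4 and Col10a1 reached 1 CPM in the 3 libraries of a single group and passed through that group alone, so their levels are given as a description, and the counts over the 40 include them. RNA was sequenced from optic tissue grown from 1 mouse embryonic stem cell line, EB5 Rx::GFP+/-, which carries a GFP reporter at the Rx locus, a gene of the early eye field. Cells were kept in 2i and LIF, reaggregated at 3000 per well as floating aggregates (SFEBq culture), and given Matrigel, an extract of basement membrane, at 4% on Day 2, so every group had met matrix protein of outside origin. On Day 10 the GFP-positive epithelium was cut out with forceps, and 3 libraries of this optic vesicle-like tissue form the Day 10 Rx::GFP+ group. Other explants were kept with CHIR99201, an inhibitor of the kinase GSK3 that switches on canonical Wnt signalling, at 3 µM for the first 24 h and at 1 µM after that (+Wnt), or with bFgf at 5 ng/mL in medium that also held 10% FBS (+Fgf). These were collected on Day 12 and Day 15, which gives 4 further groups of 3 libraries, and no explant cultured without either agent is among the 15 samples. Serum was in the +Fgf medium alone, so bFgf and serum cannot be told apart. The study describes the +Wnt tissue as mostly like retinal pigment epithelium (RPE) and the +Fgf tissue as mostly like neural retina, with neither pure.

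Collagens are extracellular proteins made of triple helices, and the classes differ in how the helices assemble. Collagen IV chains form the sheet-like network of basement membranes, on which the optic epithelia rest. Collagens I, II, III, V and XI build fibrils, collagens IX, XII and their relatives sit on fibril surfaces, collagen VI forms beaded filaments, collagen VIII forms the hexagonal lattice of some specialised basement membranes, and collagens XIII, XVII, XXIII and XXV span the plasma membrane. In the eye, collagens II, IX and XVIII are known from the vitreous, the inner limiting membrane and the ciliary body, and Bruch's membrane under the RPE holds collagen IV sheets around a core with fibrillar collagen.

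Depth was similar throughout: the libraries held 12556998 to 16175450 counted reads (median 15073047), so that 1 read was worth 0.0620 to 0.0764 CPM. Markers fitted the labels in most respects. The summed level of 8 neural retina genes was 2449 to 2555 CPM in Day 15 +Fgf and 628 to 672 CPM in Day 15 +Wnt, and that of 10 RPE genes was 348 to 528 and 6232 to 8218 CPM. However, Rpe65, a defining gene of mature RPE, was at 0 in all 3 Day 15 +Wnt libraries, and Best1 averaged 0.160 CPM there. Ttr (929 CPM on average in Day 15 +Wnt) and Otx2 are also on a list of 6 choroid plexus genes. The sum of that list was 143 to 286 CPM in Day 15 +Fgf and 1120 to 1634 in Day 15 +Wnt, and the part of such cells was not tested. The labels do not say whether the 3 libraries of a group came from separate differentiations, so the p-values measure the spread between these libraries.

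The classes took different shares of the collagen RNA under each culture condition. Collagen IV made up about as much of all collagen RNA as the other classes together in +Fgf tissue at both days, whereas in +Wnt tissue at Day 15 RNA of collagens I, III, VI and VIII had come up and the summed level of collagen IV (481 ± 13.3 CPM) was near that of Day 10 (491 ± 20.8 CPM, SD, n = 3). Col2a1 and Col9a1, genes of cartilage and vitreous collagens, were high on Day 10 and lowest in Day 15 +Wnt tissue. The summed collagen level itself was 1683, 1647 and 1613 CPM on Day 10 (mean 1648 ± 35.3, SD, n = 3), 2452, 2177 and 2555 in Day 12 +Fgf, 1335, 1165 and 1227 in Day 12 +Wnt, 1954, 1821 and 1785 in Day 15 +Fgf and 1873, 1706 and 1798 in Day 15 +Wnt. Day 12 +Fgf was thus the highest group and Day 12 +Wnt the lowest, neither overlapping any other, while the groups of Day 15 overlapped. Collagen IV genes took 29.8 ± 1.45% of this sum on Day 10, 49.5 ± 4.14% in Day 12 +Fgf, 22.2 ± 4.61% in Day 12 +Wnt, 51.4 ± 2.36% in Day 15 +Fgf and 26.9 ± 1.89% in Day 15 +Wnt (SD, n = 3). Collagen VI averaged 0.505% of the sum on Day 10, at most 1.53% in the +Fgf groups and 9.72 ± 0.981% in Day 15 +Wnt, where collagens VIII and X reached 6.84 ± 0.289%. CPM are not divided by gene length, so these shares weigh long transcripts more.

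**Figure D1:**
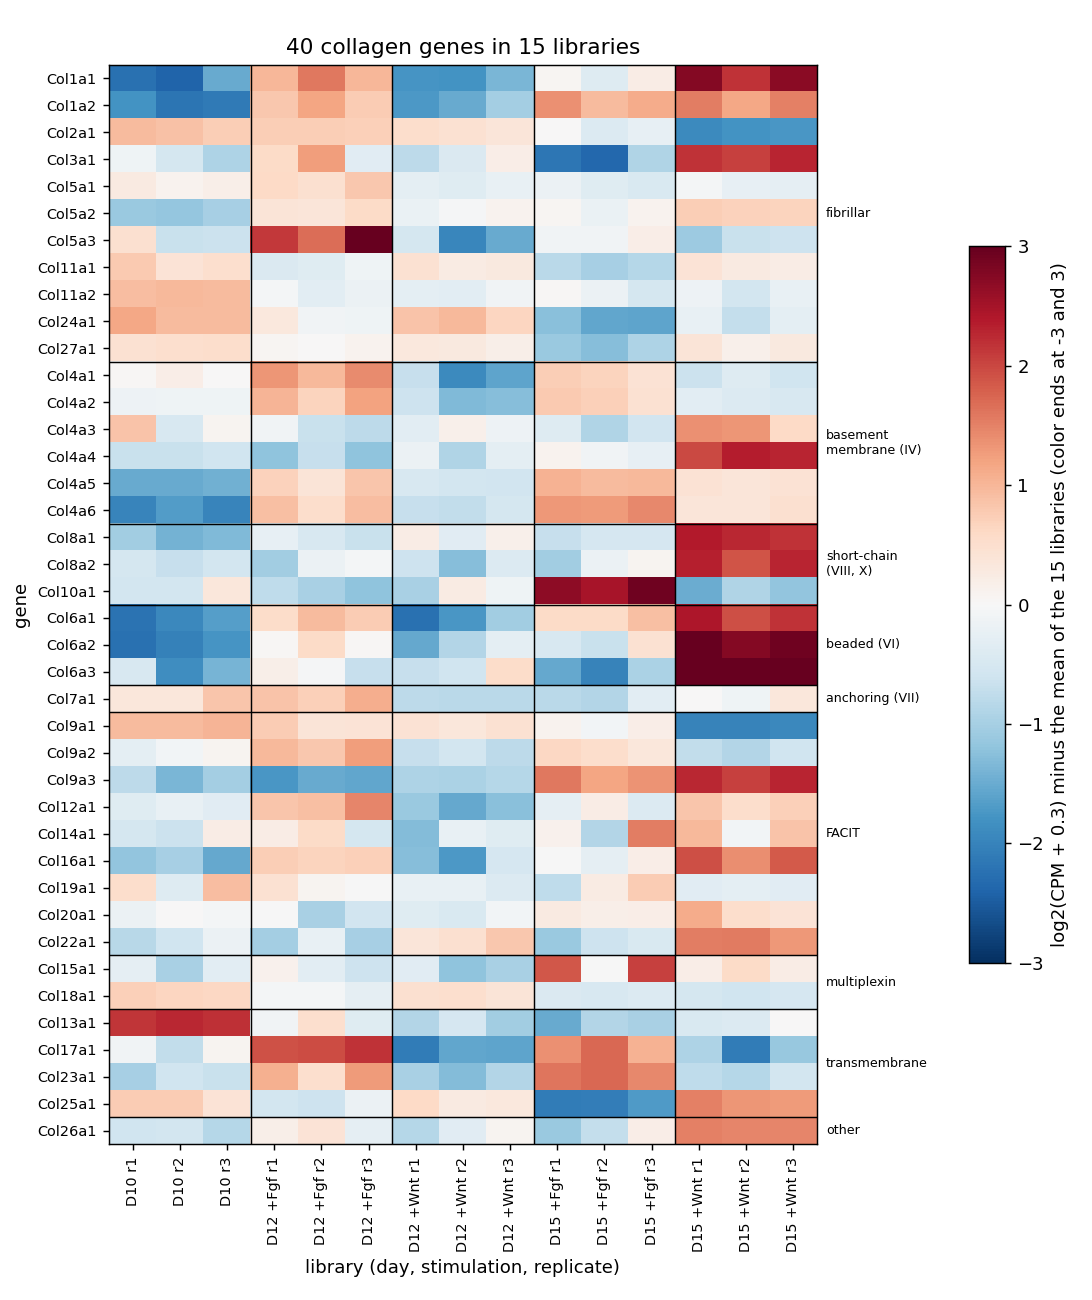
Level of the 40 tested collagen genes (rows, by class) in the 15 libraries (columns, by group), as log2(CPM + 0.3) minus the mean of the gene over all libraries, with the colors ending at -3 and 3. Libraries of a group resemble each other, the collagen VI rows are highest in Day 15 +Wnt, and Col4a1, Col4a2, Col4a5 and Col4a6 are highest in +Fgf tissue.

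**Figure D2:**
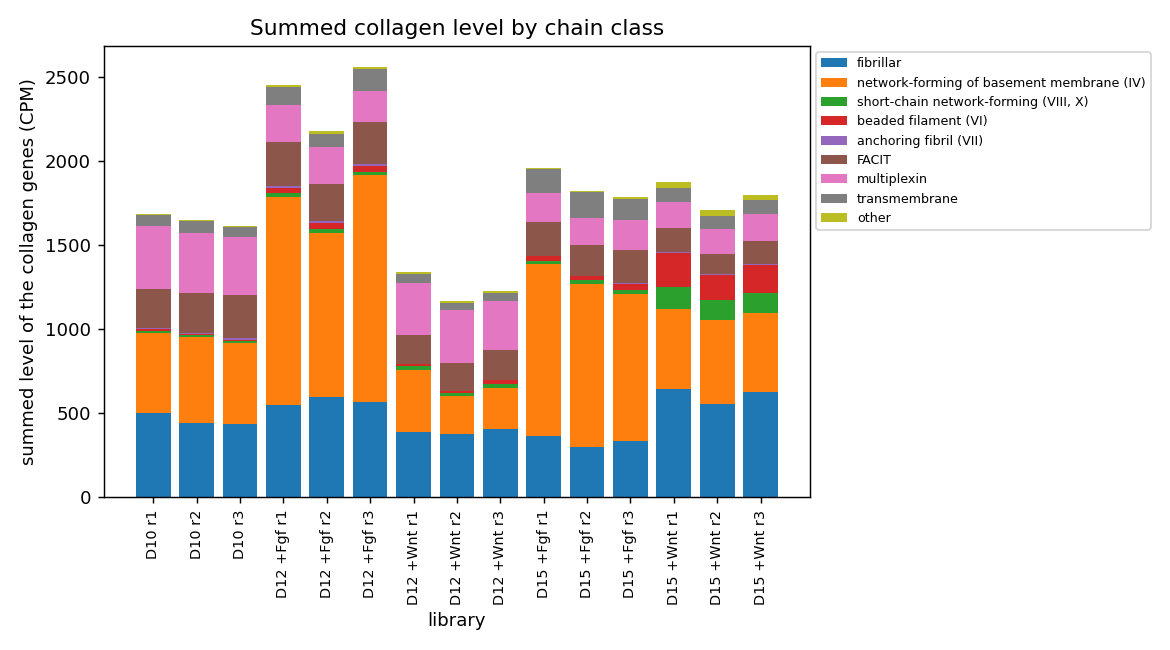
Summed level of the collagen genes in CPM (vertical axis, from 0) in each of the 15 libraries, stacked by chain class. The bars run from 1165 CPM in Day 12 +Wnt to 2555 CPM in Day 12 +Fgf, and collagen IV is the tallest part of every +Fgf bar.

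Each group was set against its starting point and its counterpart, with limma fitted to log2(CPM + 0.3) over all 13845 genes that passed the filter and a Benjamini-Hochberg adjusted p of 0.05 as the threshold. From Day 10 to Day 12 +Fgf, 20 of the 40 tested members rose and 9 fell, beside 55.7% of all tested genes that passed (27.9% higher and 27.8% lower). From Day 10 to Day 12 +Wnt, 8 rose and 13 fell, beside 60.2% (30.6% higher and 29.6% lower). Increases were thus the more frequent direction among the members under +Fgf, while over all genes the directions were nearly even. Under +Wnt 52.5% of the 40 passed, below the share of all genes. Falls there were near the share of all genes and rises were less frequent, so no downward trend is read from these counts. The median log2 change of the 40 was 0.42 and -0.23, against medians within 0.01 of 0 over all tested genes. These comparisons share the Day 10 libraries.

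Between Day 12 and Day 15 the culture conditions went opposite ways. Under +Fgf 8 members rose and 20 fell (median -0.44), beside 57.1% of all genes called (27.2% higher and 29.9% lower). Under +Wnt 25 rose and 5 fell (median 0.93), beside 68.0% (32.5% higher and 35.5% lower). With quantile normalization the split under +Wnt was 21 and 8, beside 4013 higher and 5673 lower of all 13845 tested genes. The test of the difference itself, the Day 12 to Day 15 change in +Fgf minus that in +Wnt, was positive for 4 members and negative for 27 of the 40 (median -1.12), beside 47.9% of all genes called (27.0% positive and 20.9% negative). The RNA integrity values listed by the study were lowest in Day 15 +Fgf. With them as a covariate the +Fgf count was 4 higher and 9 lower, beside 1878 and 1713 of all 13845 tested genes. The interaction then gave 4 and 20, beside 2181 and 1661 of all tested genes. Calls thus became fewer over all genes as well. In that fit the +Fgf falls of Col1a1 (-0.82), Col3a1 (-1.09), Col4a1 (-0.41), Col9a1 (-0.06) and Col18a1 (-0.20) and the rise of Col4a5 (0.30) kept their sign and missed the threshold, as did the interactions of Col4a1 (-1.25), Col4a3 and Col4a6 (-0.25), whereas those of Col1a1, Col1a2, Col3a1 and the collagen VI genes still passed. How far RNA integrity contributed was not tested beyond this fit.

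At equal age the direction turned over between the days. On Day 12, 19 members were higher and 7 lower in +Fgf than in +Wnt tissue (median log2 difference 0.52), beside 51.5% of all genes called (26.3% higher and 25.2% lower). On Day 15, 10 were higher and 21 lower (median -0.73), beside 68.7% (38.0% higher and 30.6% lower). Collagen IV did not follow this turn as a whole: 4 of its 6 genes were higher in +Fgf on Day 12, and the same number was higher on Day 15, when the other 2 were lower. Those were Col4a3 and Col4a4, which passed the filter on low values mainly or only through Day 15 +Wnt, so nothing is read from their direction.

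**Figure D3:**
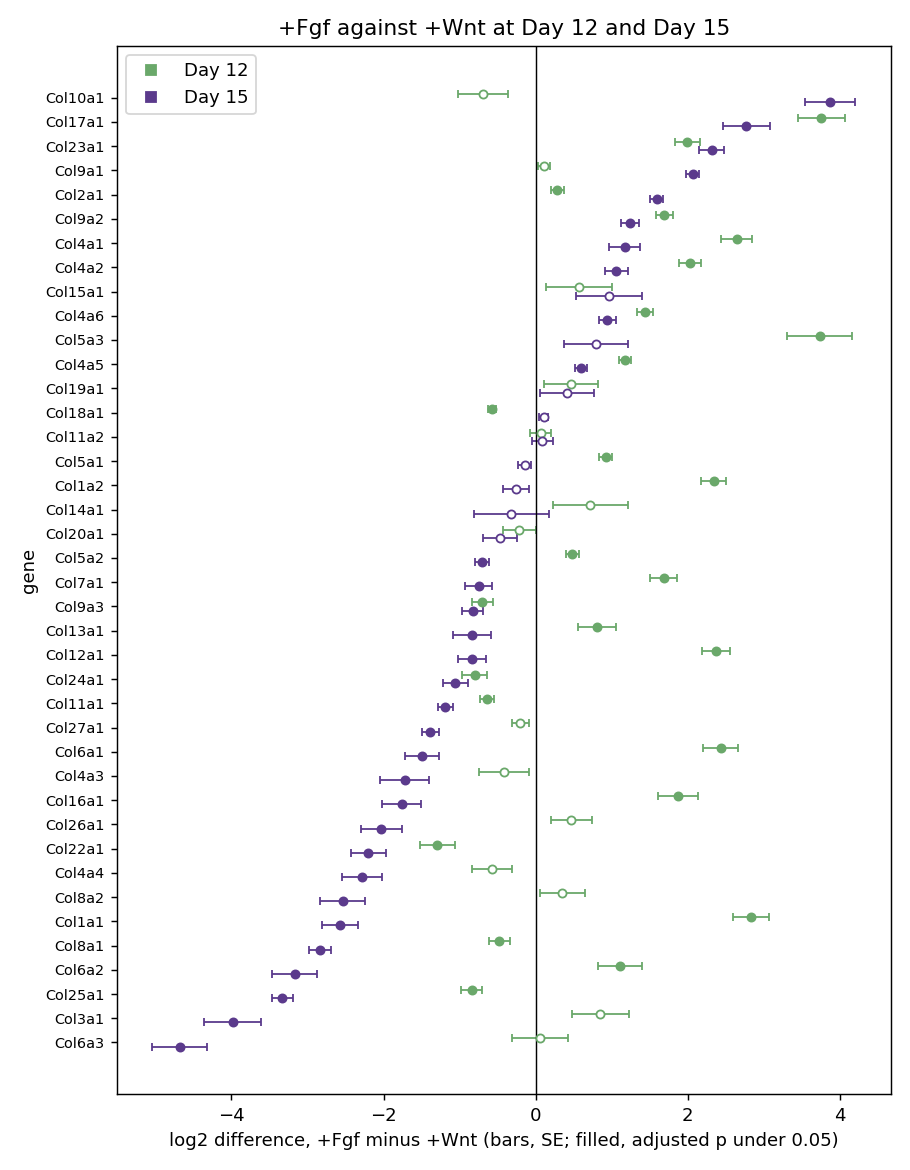
Log2 difference of +Fgf minus +Wnt (horizontal axis) for each of the 40 tested collagen genes (rows, ordered by the Day 15 difference), on Day 12 in green and on Day 15 in purple, with bars of 1 SE and filled points for an adjusted p under 0.05. Col4a1, Col4a2, Col4a5 and Col4a6 lie above 0 on both days, whereas Col1a1, Col6a1 and Col6a2 lie above 0 on Day 12 and below 0 on Day 15.

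Collagen IV comes as 6 chains whose genes lie in head-to-head pairs. In mm10, Col4a1 was annotated at chr8:11198423-11312826 on the minus strand and Col4a2 at chr8:11312805-11449287 on the plus strand, so that their first bases overlapped. Col4a4 and Col4a3 on chromosome 1 were 72 bp apart, and Col4a6 and Col4a5 on the X chromosome 1309 bp apart. The start regions of both major pairs are shown because the members of each pair moved together in the values that follow. The windows hold 250 bases before to 50 after the annotated start (RefSeq, GRCm38.p6, the patch release of mm10), each read 5′ to 3′ on the strand of its gene. For the first pair they are chr8:11312777-11313076 on the minus strand and chr8:11312555-11312854 on the plus strand, and the capitals mark the 78 bases that both windows hold, as reverse complements of each other.
Col4a1: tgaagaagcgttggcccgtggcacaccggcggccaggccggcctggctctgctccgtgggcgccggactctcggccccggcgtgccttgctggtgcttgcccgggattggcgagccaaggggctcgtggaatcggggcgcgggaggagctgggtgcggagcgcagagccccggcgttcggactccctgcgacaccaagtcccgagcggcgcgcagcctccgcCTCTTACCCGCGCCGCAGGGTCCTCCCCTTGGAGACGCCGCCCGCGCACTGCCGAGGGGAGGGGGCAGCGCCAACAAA
Col4a2: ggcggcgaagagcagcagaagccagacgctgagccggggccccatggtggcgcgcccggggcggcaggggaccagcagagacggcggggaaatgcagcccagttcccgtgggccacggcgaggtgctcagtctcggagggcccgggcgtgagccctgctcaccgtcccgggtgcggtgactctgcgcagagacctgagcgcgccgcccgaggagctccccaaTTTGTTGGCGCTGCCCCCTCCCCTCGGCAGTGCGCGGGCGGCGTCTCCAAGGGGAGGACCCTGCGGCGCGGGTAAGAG
For the second pair they are chrX:141475169-141475468 on the plus strand and chrX:141474027-141474326 on the minus strand, and the capitals mark matches on either strand to the CCAAT box (CCAAT), the GC box (GGGCGG) and the TATA box (TATAAA).
Col4a5: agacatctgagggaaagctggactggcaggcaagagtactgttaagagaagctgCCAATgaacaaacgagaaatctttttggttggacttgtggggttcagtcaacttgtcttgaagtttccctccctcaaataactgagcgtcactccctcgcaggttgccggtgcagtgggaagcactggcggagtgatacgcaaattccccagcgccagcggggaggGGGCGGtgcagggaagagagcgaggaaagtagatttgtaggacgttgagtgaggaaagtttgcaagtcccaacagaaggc
Col4a6: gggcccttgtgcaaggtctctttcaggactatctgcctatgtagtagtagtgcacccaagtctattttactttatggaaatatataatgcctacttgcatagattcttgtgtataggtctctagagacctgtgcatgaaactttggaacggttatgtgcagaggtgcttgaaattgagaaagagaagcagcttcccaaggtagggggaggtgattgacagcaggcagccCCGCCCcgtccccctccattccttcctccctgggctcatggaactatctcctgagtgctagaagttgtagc
The first pair had 74.0% and 73.7% GC with 37 and 33 CpG dinucleotides, and the second 52.7% and 48.3% with 11 and 3. The table held windows for 35 of the 44 collagen genes, 38 windows in all. GGGCGG was in 23 of these 38 (60.5%) and in 35.7% of all 32851 windows of this length, CCAAT in 34.2% and 37.4%, and TATAAA in 13.2% and 13.6%. Of motifs chosen for this tissue and treatment, CTTTGAT was in 1 of the 38 (3.73% of all windows), TGANTCA in 1 (7.81%) and TAATCC in 0 (7.06%), all searched on both strands.

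Col4a1 and Col4a2, the chains of the common basement membrane network, rose with +Fgf and fell with +Wnt by Day 12. Col4a1 was at 265, 296 and 263 CPM on Day 10, 653, 512 and 696 in Day 12 +Fgf and 160.0, 69 and 86 in Day 12 +Wnt. On Day 15 it was at 436, 415 and 353 under +Fgf and 165, 198 and 171 under +Wnt. The Day 12 +Fgf libraries were all above, and the Day 12 +Wnt libraries all below, every Day 10 library, and Day 12 +Wnt replicate 1 stood above its partners. The rise was 2.26-fold (log2 change 1.16, SE 0.20, limma adjusted p = 1.53e-04) and the fall 2.62-fold (log2 change -1.48, SE 0.20, limma adjusted p = 1.17e-05), which without that replicate was -1.83 on the log2 scale. +Fgf tissue held 5.91-fold the +Wnt level on Day 12 and 2.26-fold on Day 15 (log2 differences 2.64 (SE 0.20) and 1.17 (SE 0.20); limma adjusted p = 1.49e-08 and 8.04e-05). In bulk RNA, fewer cells of a type and less RNA per cell cannot be told apart, here and below.

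Col4a2 followed its neighbour. It was at 174, 179 and 177 CPM on Day 10, 392, 311 and 448 in Day 12 +Fgf, 127, 78 and 80.3 in Day 12 +Wnt, 334, 318 and 269 in Day 15 +Fgf and 155, 145 and 139 in Day 15 +Wnt. The log2 change from Day 10 was 1.10 (SE 0.15) with +Fgf and -0.93 (SE 0.15) with +Wnt, both past the threshold (limma adjusted p = 1.15e-05 and 5.38e-05), and the Day 12 difference between the conditions was 2.03. From Day 12 to Day 15 the +Fgf change of -0.31 missed the threshold and the +Wnt change of 0.66 passed it. For Col4a1 both passed, at -0.62 and 0.85, although the +Fgf call was lost without Day 12 +Fgf replicate 1 or 3 or without Day 15 +Fgf replicate 3 (log2 changes -0.58 to -0.53). Per kilobase of transcript the ratio of Col4a1 to Col4a2 was 1.52 ± 0.0887 on Day 10, 1.58 ± 0.0586 in Day 12 +Fgf and 1.04 ± 0.182 in Day 12 +Wnt (SD, n = 3). The protein network uses these chains at 2 to 1. The genes overlap on opposite strands at their starts, and whether counting used strand is not stated in the sources used here, so reads from that overlap cannot be told apart.

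Col4a5 and Col4a6, chains of a network that partly replaces the common one in some basement membranes, rose in every condition. Col4a5 was at 29.8, 29.9 and 31.3 CPM on Day 10, 138, 112 and 152 in Day 12 +Fgf and 61.1, 57.9 and 57 in Day 12 +Wnt, then 177, 166 and 168 in Day 15 +Fgf and 115, 109 and 115 in Day 15 +Wnt. Every library after Day 10 was above every Day 10 library, and +Fgf was above +Wnt at both days. The log2 change from Day 10 was 2.12 (SE 0.08) with +Fgf and 0.94 (SE 0.08) with +Wnt (limma adjusted p = 2.43e-11 and 4.48e-08). Col4a6 was at 7.15, 8.96 and 7.18 CPM on Day 10, 54.8, 42.4 and 55.7 in Day 12 +Fgf, 17.9, 17.4 and 20.3 in Day 12 +Wnt, 72.5, 71.1 and 79.6 in Day 15 +Fgf and 37.6, 37.4 and 40.6 in Day 15 +Wnt. The order of its group means was the same as that of Col4a5, with log2 changes of 2.66 and 1.23 from Day 10 and a Day 15 difference of 0.94 between the conditions, all past the threshold. Under +Wnt, then, the chromosome 8 pair fell below and the X chromosome pair rose above Day 10, and the per kilobase ratio of Col4a5 to Col4a1 was 0.117 ± 0.00971 on Day 10, 0.227 ± 0.00462 in Day 12 +Fgf, 0.661 ± 0.243 in Day 12 +Wnt, 0.45 ± 0.0444 in Day 15 +Fgf and 0.674 ± 0.0819 in Day 15 +Wnt.

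The remaining pair, Col4a3 and Col4a4, known from mature glomerular basement membrane, was near the limit of counting in most libraries. Col4a4 was at 0.136, 0.134 and 0.153 CPM on Day 10 and 0, 0.127 and 0 in Day 12 +Fgf, where a library at 0 allows up to 3 reads. It was at 0.315, 0.0696 and 0.265 in Day 12 +Wnt, 0.442, 0.343 and 0.283 in Day 15 +Fgf and 2.42, 3.21 and 3.09 in Day 15 +Wnt. The Day 15 +Wnt libraries were above all others, and since Col4a4 entered the tests through them, no test of it is given. Col4a3 was at 2.48, 2.39 and 1.33 CPM there and between 0.275 and 1.64 CPM in the other 12 libraries, so that its Day 15 +Wnt libraries overlapped those of Day 10. Outside the 3 Day 15 +Wnt libraries Col4a3 reached 1 CPM in 1 Day 10 library, so it too entered the tests mainly through that group, and its rise there from Day 12 missed the threshold with quantile normalization (log2 change 0.49). Col4a1, Col4a2, Col4a5 and Col4a6 rose in +Wnt tissue from Day 12 to Day 15, and these 4 had a negative interaction, that is, a smaller rise or a fall in +Fgf over the same days. For Col4a3 the interaction (-1.30) lost its call on leaving out any of 6 single libraries (-1.28 to -1.10), namely Day 12 +Fgf replicate 1, Day 12 +Wnt replicates 1 and 3, Day 15 +Fgf replicate 2 and Day 15 +Wnt replicates 1 and 2.

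**Figure D4:**
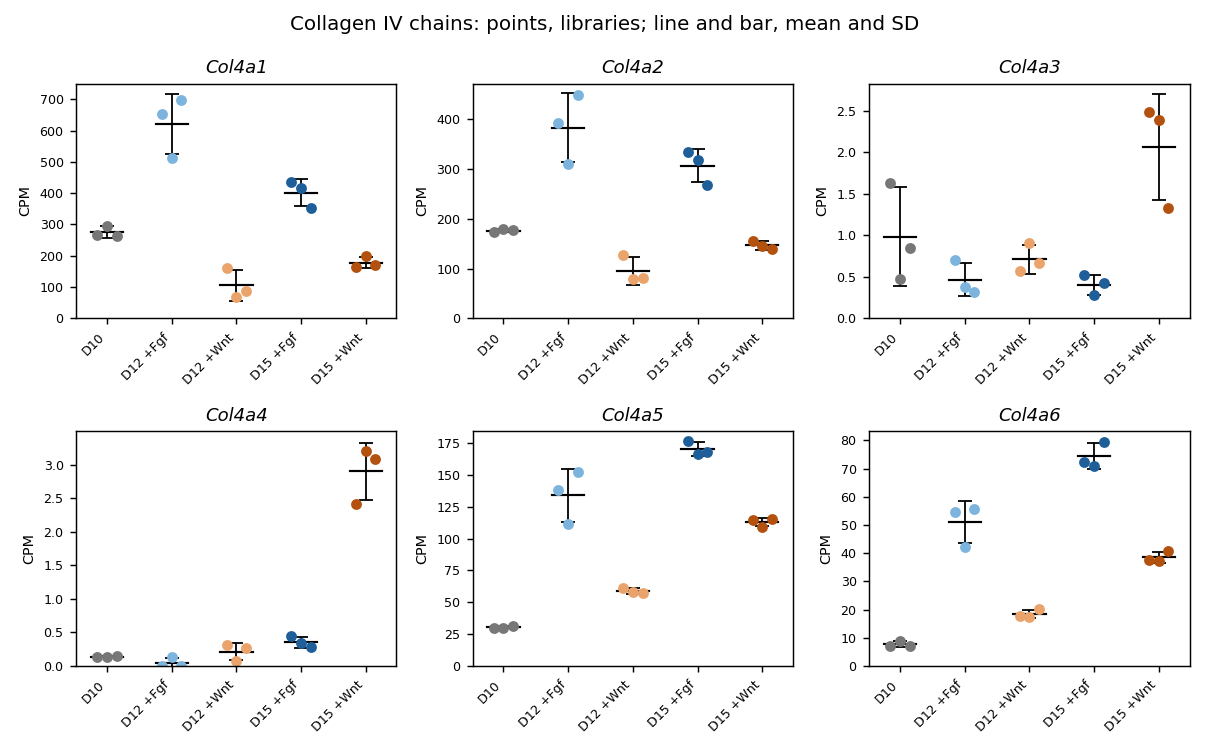
Level in CPM (vertical axis, from 0, a scale for each gene) of the 6 collagen IV genes by group, with 1 point per library and the mean and SD of 3 libraries as a line and bar. Col4a1 and Col4a2 are lowest in Day 12 +Wnt, Col4a5 and Col4a6 are lowest on Day 10, and Col4a4 exceeds 1 CPM in Day 15 +Wnt alone.

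Col1a1 and Col1a2 rose with +Fgf by Day 12, and with +Wnt mostly between Day 12 and Day 15. Col1a1, a chain of the main fibril of skin, bone and stroma, was at 1.91, 1.67 and 3.36 CPM on Day 10, 20.4, 30.9 and 20.4 in Day 12 +Fgf, 2.77, 2.71 and 3.71 in Day 12 +Wnt, 10.6, 7.69 and 11.9 in Day 15 +Fgf and 70.5, 46.5 and 67.6 in Day 15 +Wnt. Its Day 15 +Wnt libraries were above all others and its Day 12 +Wnt libraries overlapped those of Day 10. The rise was 10.3-fold from Day 10 to Day 12 +Fgf (log2 change 3.24, SE 0.24, limma adjusted p = 1.41e-08) and 20.1-fold from Day 12 to Day 15 +Wnt (log2 change 4.19, SE 0.24, limma adjusted p = 2.15e-10). From Day 12 to Day 15 +Fgf it fell by 1.21 on the log2 scale, and the interaction was -5.40 (SE 0.34) (limma adjusted p = 4.14e-09).

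Its partner chain Col1a2 did not fall with it. Col1a2 was at 9.27, 7.02 and 7.34 CPM on Day 10, 58.2, 75.9 and 55.8 in Day 12 +Fgf, 9.75, 11.5 and 16 in Day 12 +Wnt, 85.8, 63.9 and 71.8 in Day 15 +Fgf and 95.8, 73.6 and 94.9 in Day 15 +Wnt. The Day 15 groups overlapped, with a difference of -0.25 (SE 0.17) on the log2 scale that missed the threshold, whereas Col1a1 was 6.1-fold lower in +Fgf (log2 difference -2.57). Per kilobase the ratio of Col1a2 to Col1a1 was 4.15 ± 1.55 on Day 10, 2.97 ± 0.226 in Day 12 +Fgf, 4.46 ± 0.485 in Day 12 +Wnt, 8.28 ± 1.4 in Day 15 +Fgf and 1.61 ± 0.132 in Day 15 +Wnt (SD, n = 3). The usual collagen I protein holds the chains at 1 to 2, so that Col1a2 RNA was in excess of that in all 5 groups and least so in Day 15 +Wnt. The start regions of Col1a2 (chr6:4505368-4505667, plus strand) and Col3a1 (chr1:45311288-45311587, plus strand) are shown as genes of this class with unlike windows, with capitals as for Col4a5.
Col1a2: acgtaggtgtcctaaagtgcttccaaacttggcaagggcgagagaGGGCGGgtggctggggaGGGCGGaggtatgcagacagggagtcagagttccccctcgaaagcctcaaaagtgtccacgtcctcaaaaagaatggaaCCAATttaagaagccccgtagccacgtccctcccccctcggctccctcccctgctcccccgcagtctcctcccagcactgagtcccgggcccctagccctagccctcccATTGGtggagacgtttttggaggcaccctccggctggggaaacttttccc
Col3a1: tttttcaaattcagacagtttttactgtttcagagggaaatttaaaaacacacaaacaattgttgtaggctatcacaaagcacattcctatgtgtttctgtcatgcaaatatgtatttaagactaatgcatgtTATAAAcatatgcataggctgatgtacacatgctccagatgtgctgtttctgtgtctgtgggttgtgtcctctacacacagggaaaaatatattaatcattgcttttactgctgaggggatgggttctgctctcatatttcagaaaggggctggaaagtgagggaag
The Col1a2 window had 61.0% GC, 13 CpG dinucleotides and matches to CCAAT and GGGCGG, and the Col3a1 window had 37.7% GC, 0 CpG and a match to TATAAA.

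Col3a1, which forms mixed fibrils with collagen I in soft tissue, varied more within groups. It was at 36.4, 27.3 and 20.7 CPM on Day 10, 59.4, 95.7 and 31.4 in Day 12 +Fgf, 22.8, 29.2 and 45.5 in Day 12 +Wnt, 8.63, 7.55 and 21 in Day 15 +Fgf and 180.4, 166 and 196 in Day 15 +Wnt. The Day 12 groups overlapped each other and Day 10, and Day 15 +Wnt stood apart from all. Its rise to Day 12 +Fgf (1.03) passed the threshold with all libraries but not without Day 10 replicate 2 or 3 or Day 12 +Fgf replicate 1 or 2 (log2 changes 0.65 to 1.03), nor with RNA integrity as a covariate (0.30). From Day 12 to Day 15 it fell by 2.31 on the log2 scale under +Fgf and rose by 2.52 under +Wnt, which left the Day 15 level 14.6-fold lower in +Fgf (limma adjusted p = 6.86e-08).

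Collagen VI, a filament of the matrix around mesenchymal cells, was highest in Day 15 +Wnt tissue. Col6a3 was at 4.29, 1.47 and 2.14 CPM on Day 10, 6.97, 5.99 and 3.71 in Day 12 +Fgf, 3.71, 3.97 and 9.2 in Day 12 +Wnt, 1.92, 1.3 and 3.04 in Day 15 +Fgf and 68.6, 53.3 and 53.7 in Day 15 +Wnt. Its Day 15 +Wnt level was 28-fold that of Day 15 +Fgf (log2 difference of +Fgf minus +Wnt -4.68 (SE 0.36), limma adjusted p = 6.52e-09). Its smaller rises from Day 10 to Day 12, 1.07 under +Fgf and 1.01 under +Wnt, were both lost without Day 10 replicate 2 or 3, the former also without Day 12 +Fgf replicate 1 or 2 (0.76 to 1.00) and the latter also without Day 12 +Wnt replicate 3 (0.61 to 0.94). Both were also lost with RNA integrity as a covariate (0.65 and 0.68), and the latter with quantile normalization (0.81). Col6a1 was at 2.32, 2.87 and 3.51 CPM on Day 10, 17.3, 23.1 and 20.1 in Day 12 +Fgf, 2.26, 3.27 and 5.56 in Day 12 +Wnt, 17.7, 17.7 and 22.1 in Day 15 +Fgf and 64.1, 45.9 and 54.2 in Day 15 +Wnt. Unlike Col6a3, it was already 6.96-fold above Day 10 in Day 12 +Fgf (log2 change 2.68, SE 0.23, limma adjusted p = 7.71e-08) and its change from there to Day 15 +Fgf (-0.07) missed the threshold. Col6a2, which lies next to Col6a1 on chromosome 10, averaged 1.65 ± 0.315, 8.89 ± 2.07, 4.15 ± 1.86, 6.77 ± 3.16 and 59.9 ± 8.18 CPM in the same order of groups and had log2 changes of 2.23 to Day 12 +Fgf and 3.84 from Day 12 to Day 15 +Wnt. The protein needs all 3 chains, and per kilobase the ratio of Col6a3 to Col6a1 was 0.451 ± 0.341 on Day 10, 0.128 ± 0.0507 in Day 12 +Fgf, 0.684 ± 0.114 in Day 12 +Wnt, 0.0485 ± 0.0145 in Day 15 +Fgf and 0.489 ± 0.039 in Day 15 +Wnt. The other 3 genes of the class, Col6a4, Col6a5 and Col6a6, did not reach the test.

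The summed markers of neural crest and mesenchyme were highest in Day 15 +Wnt and Day 12 +Fgf, and followed these collagens only in part. The summed level of 14 such genes was 127 to 151 CPM on Day 10, 265 to 359 in Day 12 +Fgf, 95.2 to 109 in Day 12 +Wnt, 105 to 134 in Day 15 +Fgf and 328 to 389 in Day 15 +Wnt. In Day 15 +Fgf the sum overlapped that of Day 10, as did Col3a1 and Col6a3, whereas Col1a1, Col1a2, Col6a1 and Col6a2 stayed above Day 10. Of the 14, 11 were at 1 CPM or more in Day 12 +Fgf and in Day 15 +Wnt. In Day 15 +Wnt the decorin gene Dcn averaged 111 CPM, Postn 55.8, Lum 51.7, Prrx1 50.4 and Pdgfra 47.3, while in Day 12 +Fgf the smooth muscle actin gene Acta2 made up 177 CPM of the sum. The early neural crest genes Sox10 and Foxd3 averaged at most 1.04 and 0.234 CPM in any group, and Tbx18 was at 0 in Day 15 +Fgf. The part of such cells in the result was not tested.

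Col8a1, a chain of the hexagonal lattice in Bruch's membrane and Descemet's membrane, also peaked in Day 15 +Wnt. It was at 10.1, 7.75 and 8.25 CPM on Day 10, 17.6, 15 and 13.3 in Day 12 +Fgf, 24.7, 16.5 and 23.6 in Day 12 +Wnt, 13.1, 14.8 and 14.9 in Day 15 +Fgf and 111, 102 and 96.5 in Day 15 +Wnt. Both Day 12 groups were above Day 10, and +Wnt rose a further 4.79-fold by Day 15 (log2 change 2.26, SE 0.14, limma adjusted p = 6.25e-10), whereas the +Fgf change of -0.09 missed the threshold. The interaction was -2.36. Col10a1, the collagen of hypertrophic cartilage, did the reverse and was counted mainly in Day 15 +Fgf, at 5.09, 4.33 and 6.01 CPM against group means of 0.0731 to 0.435 CPM elsewhere. As a description, since the gene entered the tests through this group, and against groups at or under the floor of 3 reads per library, it was at least 26.9-fold higher than in Day 12 +Fgf and at least 24.9-fold higher than in Day 15 +Wnt. Col10a1 lies inside Nt5dc1 on the opposite strand with overlapping exons, so its reads and those of Nt5dc1 cannot be told apart. The summed level of 6 chondrocyte markers, most of it from Sox9, was 89.8 to 95 CPM in Day 15 +Fgf. It was 31.8 to 32.8 on Day 10, 47.7 to 60.2 in Day 12 +Fgf, 34.8 to 41.4 in Day 12 +Wnt and 54.1 to 60.5 in Day 15 +Wnt. In Day 15 +Fgf it was made up of Sox9 at 80.2, Hapln1 at 10.5 and Acan at 1.86 CPM on average, with Chad, Matn1 and Comp at 0.0949, 0.0464 and 0.0229, and the part of such cells in the result was not tested.

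**Figure D5:**
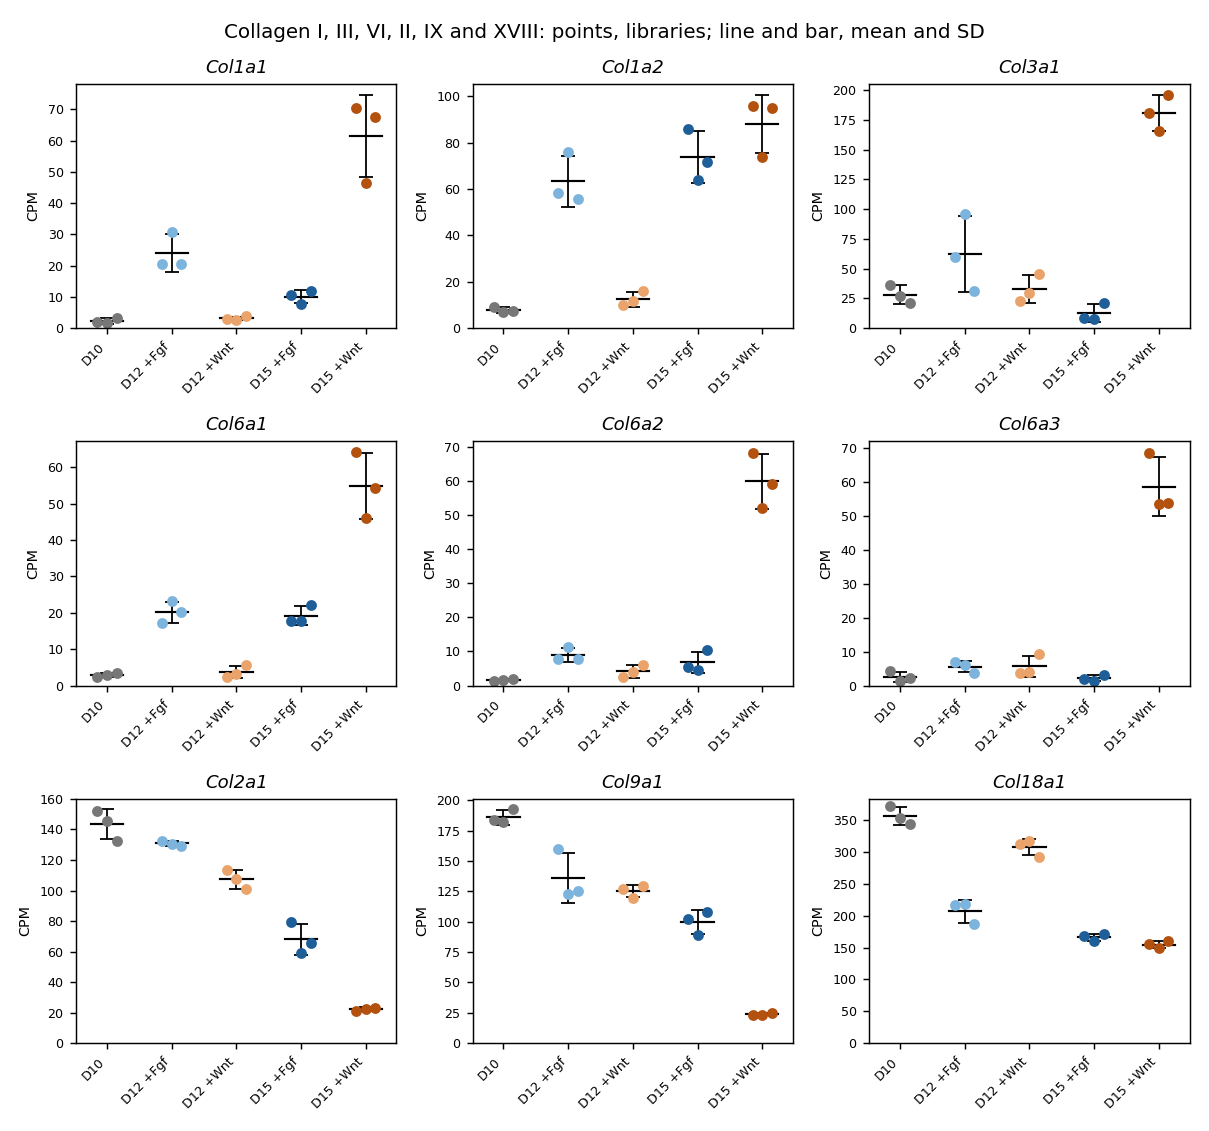
Level in CPM (vertical axis, from 0, a scale for each gene) of Col1a1, Col1a2, Col3a1, the 3 tested collagen VI genes, Col2a1, Col9a1 and Col18a1 by group, with 1 point per library and the mean and SD of 3 libraries as a line and bar. The first 6 genes rise and the last 3 fall from Day 12 to Day 15 under +Wnt.

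Of the collagens known from vitreous and cartilage, Col2a1 and Col9a1 fell as culture went on, most of all by Day 15 under +Wnt. Col2a1, which forms the vitreous and cartilage fibril and is also made by early neuroepithelium, was at 152, 146 and 132 CPM on Day 10, 132, 131 and 129 in Day 12 +Fgf, 114, 108 and 101 in Day 12 +Wnt, 79.2, 58.7 and 65.8 in Day 15 +Fgf and 20.8, 22.6 and 23.1 in Day 15 +Wnt. The Day 15 +Wnt libraries were below all others. The fall from Day 12 to Day 15 was 4.84-fold under +Wnt (log2 change -2.26, SE 0.08, limma adjusted p = 2.53e-12) and 1.93-fold under +Fgf (log2 change -0.95), and these differed by 1.31 (SE 0.12) (limma adjusted p = 2.06e-07). Col9a1, which decorates collagen II fibrils, was at 184, 182 and 193 CPM on Day 10, 160.2, 123 and 125 in Day 12 +Fgf, 127, 119 and 129.6 in Day 12 +Wnt, 102, 89.3 and 108 in Day 15 +Fgf and 23.1, 23.2 and 24.5 in Day 15 +Wnt. It paralleled Col2a1, with log2 changes of -0.44 and -2.39 over the last days.

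The other chains of collagen IX did not keep to this pattern. Col9a2 was at 31.2, 36.4 and 40.3 CPM on Day 10, 74.8, 67.4 and 91.5 in Day 12 +Fgf, 23.5, 25.9 and 21.9 in Day 12 +Wnt, 59.3, 55.4 and 48.7 in Day 15 +Fgf and 22.8, 20.7 and 25.2 in Day 15 +Wnt, and so rose with +Fgf where Col9a1 fell (log2 changes from Day 10 1.11 and -0.46). Col9a3 was at 4.84, 3.14 and 4.13 CPM on Day 10, 2.35, 2.8 and 2.75 in Day 12 +Fgf, 4.4, 4.32 and 4.63 in Day 12 +Wnt, 26.2, 20.0 and 22.4 in Day 15 +Fgf and 42.3, 36.8 and 43 in Day 15 +Wnt. It rose in both conditions from Day 12 to Day 15, by 8.68-fold and 9.15-fold (log2 changes 2.98 (SE 0.14) and 3.11 (SE 0.14)), with an interaction of -0.13 that missed the threshold. The protein needs the chains in equal number, whereas per kilobase the ratio of Col9a3 to Col9a1 was 0.0292 ± 0.00612 on Day 10 and 2.32 ± 0.166 in Day 15 +Wnt. Exons of Col9a3 overlap Tcfl5 on the opposite strand, so its reads may include that gene.

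Col18a1, a basement membrane collagen whose end fragment is endostatin, was the collagen gene with the most RNA per length on Day 10. It was at 373, 354 and 345 CPM on Day 10, 217, 218 and 186 in Day 12 +Fgf, 314, 317 and 293 in Day 12 +Wnt, 168, 160.4 and 171 in Day 15 +Fgf and 156, 149 and 160.2 in Day 15 +Wnt. The fall came by Day 12 under +Fgf (log2 change -0.79 (SE 0.06)) and mostly between Day 12 and Day 15 under +Wnt (-0.99 (SE 0.06)), and the Day 15 difference of 0.10 missed the threshold. Its relative Col15a1 was low, at 2.8, 0.549 and 3.25 CPM in Day 15 +Fgf and under 1 CPM on average elsewhere. Of the collagen XI chains, which set fibril width, Col11a1 was at 103 ± 14.5 CPM on Day 10, 56.2 ± 6.66 in Day 12 +Fgf, 87.5 ± 6.89 in Day 12 +Wnt, 37.2 ± 2.67 in Day 15 +Fgf and 85.4 ± 6.15 in Day 15 +Wnt (SD, n = 3), with a Day 15 difference of -1.19. Col11a2 fell in both conditions by Day 12, from 20.5 ± 0.381 to 9.25 ± 0.834 and 8.82 ± 0.737 CPM, and did not pass the threshold in any later comparison.

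The membrane collagens differed by condition more than as a class. Col23a1 was at 21.4, 28.3 and 26.9 CPM on Day 10, 90.6, 61.2 and 105 in Day 12 +Fgf, 21.8, 17.5 and 23.4 in Day 12 +Wnt, 132, 145 and 117 in Day 15 +Fgf and 25.3, 23.8 and 29.6 in Day 15 +Wnt. It was 4.1-fold higher in +Fgf on Day 12 and 5.01-fold on Day 15 (log2 differences 1.99 (SE 0.16) and 2.31 (SE 0.16)). Col25a1, a collagen of neurons, was at 34.9, 34.9 and 27.4 CPM on Day 10, 13.9, 13.2 and 18 in Day 12 +Fgf, 30.9, 24.8 and 25.6 in Day 12 +Wnt, 4.57, 4.67 and 6.08 in Day 15 +Fgf and 59.3, 51.9 and 50.5 in Day 15 +Wnt, and was therefore 10.6-fold lower in +Fgf than in +Wnt tissue at the end (log2 difference -3.33 (SE 0.14), limma adjusted p = 2.52e-12). Col13a1 fell from 7.53 ± 0.335 CPM on Day 10 to 1.46 ± 0.566 in Day 12 +Fgf and 0.688 ± 0.194 in Day 12 +Wnt (5.15-fold and 11-fold lower), the steepest fall of any collagen gene with +Wnt.

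Among the rest, Col5a3, a minor fibrillar chain, was at 5.96, 4.27 and 14.7 CPM in Day 12 +Fgf and at group means of 0.32 to 1.14 CPM elsewhere, with replicate 3 well above its partners and a log2 rise from Day 10 of 2.67 (SE 0.42). Col7a1, the anchoring fibril of epithelia, was higher in +Fgf than in +Wnt tissue on Day 12 (10.1 ± 1.38 and 2.93 ± 0.0228 CPM, log2 difference 1.68) and lower on Day 15 (3.26 ± 0.787 and 5.66 ± 1.02 CPM, -0.75), the latter not past the threshold with quantile normalization (-0.40) or RNA integrity as a covariate (-0.35). Col22a1, a collagen of tissue junctions, was highest in Day 15 +Wnt at 13 ± 1.27 CPM, against 2.64 ± 0.65 in Day 15 +Fgf (-2.20). Col24a1 fell in the +Fgf step from Day 10 by 0.99 and in both later steps (log2 changes -1.49 and -1.23). From Day 12 to Day 15 the 9 tested fibril-associated genes had 6 rises and 1 fall under +Wnt and 2 and 4 under +Fgf. The 11 fibrillar genes had 4 and 2 under +Wnt, and 0 and 9 under +Fgf. Over all tested genes 32.5% rose and 35.5% fell under +Wnt, and 27.2% and 29.9% under +Fgf. The more frequent directions in both classes were those of the 40 members together, so nothing particular to either class is read from these counts. The 4 genes that did not reach the test, Col6a4, Col6a5, Col6a6 and Col28a1, were at most 1.39 CPM in any library.

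The order of the genes, on the scale of mean CPM per kilobase of transcript, changed with the condition. On Day 10 it ran Col18a1 (70.5 ± 2.85), Col9a1 (48.5 ± 1.56), Col4a1 (41.6 ± 2.83), Col2a1 (28.1 ± 1.97) and Col4a2 (27.4 ± 0.407), the last pair with overlapping libraries. In Day 12 +Fgf Col4a1 (93.8 ± 14.6) and Col4a2 (59.5 ± 10.7) led, ahead of Col18a1 (40.9 ± 3.55) and Col9a1 (35.5 ± 5.44), which overlapped. In Day 12 +Wnt the order began as on Day 10, with Col18a1 (60.8 ± 2.61) and Col9a1 (32.7 ± 1.4), and Col2a1 (21 ± 1.22) overlapped Col4a1 (15.9 ± 7.31). In Day 15 +Fgf Col4a1 (60.7 ± 6.49) and Col4a2 (47.6 ± 5.22) still led and Col4a5 (27.1 ± 0.886) was the fourth. In Day 15 +Wnt Col3a1 (32.5 ± 2.7), Col18a1 (30.6 ± 1.14) and Col4a1 (26.9 ± 2.66) came first, and each overlapped the next of these, while Col4a1 did not overlap Col4a2, the fourth.

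Collagen chains need hydroxylation, folding, export and cross-linking, and 52 genes for these steps, for collagen receptors and for collagen-binding matrix proteins were listed, of which 49 were tested. From Day 10, 29 rose and 4 fell with +Fgf, beside 27.9% and 27.8% of all tested genes. With +Wnt 16 rose and 11 fell, beside 30.6% and 29.6%, and no direction is read from these counts. From Day 12 to Day 15, 9 rose and 24 fell under +Fgf, beside 27.2% and 29.9%. Under +Wnt 33 rose and 4 fell, beside 32.5% and 35.5%. The interaction was positive for 2 and negative for 36, beside 27.0% and 20.9%. Apart from the +Wnt step to Day 12, the more frequent directions were those of the collagen genes.

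Of the 17 genes for chain modification and folding, 11 rose with +Fgf by Day 12 and 0 fell, beside 27.9% and 27.8% of all tested genes. Serpinh1, the collagen chaperone of the endoplasmic reticulum, was at 429, 402 and 387 CPM on Day 10, 718, 725 and 760.4 in Day 12 +Fgf, 608, 645 and 644 in Day 12 +Wnt, 520.1, 514 and 513 in Day 15 +Fgf and 794, 685 and 732 in Day 15 +Wnt. All later libraries were thus above Day 10, with log2 changes of 0.86 and 0.64 by Day 12, and the Day 15 level was lower in +Fgf than in +Wnt (-0.51). P4ha1, a prolyl hydroxylase subunit, rose in all 4 steps, from 52.9 ± 2.63 CPM on Day 10 to 199 ± 17.6 and 228 ± 6.16 CPM on Day 15 under +Fgf and +Wnt. P4ha2, its relative, did not pass the threshold by Day 12 and then rose by 1.43 and 2.13 on the log2 scale. Plod2, a lysyl hydroxylase, reached 195 ± 4.59 CPM in Day 15 +Fgf and 132 ± 5.86 in Day 15 +Wnt, from 67.4 ± 0.786 on Day 10. Glt25d2, a collagen galactosyltransferase, was higher in +Fgf tissue at both days (5.16-fold on Day 12 and 4.48-fold on Day 15).

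The cross-linking and binding genes also differed between the conditions. Lox, lysyl oxidase, was at 0.944, 0.626 and 1.26 CPM in Day 12 +Wnt and 16.9, 21.7 and 23.2 in Day 15 +Wnt (log2 change 4.09 (SE 0.23)), and at 5.16, 6.87 and 4.66 in Day 15 +Fgf. Nid1, the laminin binder of basement membranes, was at 24.7, 30.3 and 24.8 CPM on Day 10, 94.8, 81.2 and 122 in Day 12 +Fgf and 9.62, 10.2 and 11.5 in Day 12 +Wnt, and so went up and down with Col4a1 (log2 changes 1.88 and -1.32). Its relative Nid2 went the other way, from 41.5 ± 2.57 CPM to 31.7 ± 1.77 and 61.2 ± 4.62 on Day 12, and stood at 22.3 ± 3.41 in Day 15 +Fgf and 162 ± 19.3 in Day 15 +Wnt (log2 difference -2.85 (SE 0.10)), although its fall to Day 12 +Fgf missed the threshold with RNA integrity as a covariate (-0.35). Bgn, the small proteoglycan biglycan, was at 0.204, 0.334 and 0.153 CPM on Day 10, 10.7, 11.3 and 8.43 in Day 12 +Fgf, 0.189, 0.348 and 0.596 in Day 12 +Wnt, 5.24, 2.47 and 5.37 in Day 15 +Fgf and 13.5, 9.92 and 18.7 in Day 15 +Wnt, so that for Bgn as for Col1a1 the means ran from Day 15 +Wnt over Day 12 +Fgf to Day 15 +Fgf, with Day 10 and Day 12 +Wnt far below and overlapping. Dcn and Lum, proteoglycans of the same family, were 48.6-fold and 37.2-fold lower in +Fgf than in +Wnt tissue on Day 15, and both are also on the mesenchyme marker list. With RNA integrity as a covariate the Day 15 differences of Lum (-2.92) and Bgn (-0.93) kept their sign and missed the threshold. Sparc, a collagen-binding protein needed for collagen IV deposition, averaged 858 ± 103 CPM in Day 12 +Fgf against 426 ± 21.7 in Day 12 +Wnt (log2 difference 1.01 (SE 0.08)). On Day 15 its order was reversed, at 643 to 686 CPM in +Fgf and 727 to 897 in +Wnt, unlike that of Col4a1 and Col4a2. Itgb1, the shared beta chain of the collagen integrins, was higher in +Fgf tissue at both days (log2 differences 0.95 and 0.58), as Col4a1 and Col4a2 were.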

How the data were processed

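RNA-seq of 15 libraries (TruSeq Stranded mRNA) was processed by the authors, whose processing notes list TopHat2 2.0.8b, Cufflinks 2.1.1, Cuffdiff and edgeR 3.2.4 on mm10. The deposited CPM are treated as a signal: the authors divided counts by library size times a normalization factor, so columns sum to 936418 to 1075448. Whole reads were recovered from 100% of non-zero values within 0.01 read, and because the deposited unit is CPM, limma was used, with the count test on those reads (edgeR 4.0.16) as an alternative. The table and the sample files agreed within 7.8e-09 of each value.

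The 5 group means were fitted together with limma 3.58.1 (R 4.3.3) on log2(CPM + 0.3) for 13845 genes at 1 CPM or more of the column total (deposited value over its column sum) in at least 3 libraries, with the trend option, two-sided tests and Benjamini-Hochberg adjustment within each comparison at 0.05. The script was tested on simulated data with 200 changed genes. Folds are ratios of group means, and log2 changes understate those of low genes. Where no library of the lower group held more than 3 reads, the floor was 3 reads per library, which covers counting error only. Members and gene lists were chosen with earlier results of these data known. Named members were the collagen IV, I, III, II, IX, XI, XV and XVIII genes and, for each comparison, the 3 with the largest change each way at 5 CPM or more. For the synthesis list, 2 each way at 10 CPM or more were named with a few chosen enzymes. Gene positions came from GENCODE and start windows from RefSeq. The alternatives were other pseudocounts, filters and scalings, a replicate block, RNA integrity as a covariate, edgeR, the compared groups alone, and each library left out.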

Additional observations from a re-analysis of the deposited data

Results flagged for a closer look

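For the named genes below, the Day 12 to Day 15 change differed between +Fgf and +Wnt by a test of the difference itself (interaction term, limma adjusted p under 0.05 over all tested genes). Each value is the log2 change in +Fgf minus that in +Wnt, over 3 libraries in each of 4 groups. Groups of 3 libraries were not searched for single outlying values.

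Among collagen IV genes the difference was -1.47 for Col4a1, -0.97 for Col4a2, -1.30 for Col4a3, -1.71 for Col4a4, -0.58 for Col4a5 and -0.50 for Col4a6. Among fibrillar genes it was -5.40 for Col1a1, -2.59 for Col1a2, -4.83 for Col3a1, -2.94 for Col5a3, -0.55 for Col11a1 and, in the positive direction, 1.31 for Col2a1. Collagen VI gave -3.92 for Col6a1, -4.28 for Col6a2 and -4.73 for Col6a3. The value was -2.36 for Col8a1, 1.95 for Col9a1 and -0.45 for Col9a2, and 4.57 for Col10a1. Col4a4 and Col10a1 passed the filter on low values through 1 group each, so their values are listed without support from the test, and that of Col10a1 was 6.86 with a pseudocount of 0.05 and 2.83 with 1. For Col4a4 the call was also lost with edgeR (-0.87) and with a pseudocount of 0.05 (-1.22). The remaining members were Col7a1 at -2.43, Col13a1 at -1.64, Col18a1 at 0.68, Col22a1 at -0.91 and Col25a1 at -2.49.

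Of the synthesis and binding genes, the proteoglycans gave -5.63 for Bgn, -5.20 for Lum and -3.68 for Dcn, and the nidogens -2.76 for Nid1 and -1.91 for Nid2. Sparc gave -1.28, the chaperone gene Serpinh1 -0.73, and the hydroxylase genes P4ha2, Plod3 and Leprel2 -0.70, -0.77 and -0.77. The propeptide processing genes Adamts3 and Pcolce gave -2.71 and -1.07, Lox -1.83, Itgb1 -0.38 and the export gene Ctage5 0.23. The call of Ctage5 was lost with edgeR (0.20), with RNA integrity as a covariate (0.30) and without Day 12 +Fgf replicate 2, Day 12 +Wnt replicate 3, Day 15 +Fgf replicate 2 or Day 15 +Wnt replicate 2 (0.18 to 0.21).

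With RNA integrity as a covariate the differences of Col4a1, Col4a3, Col4a4, Col4a6, Col9a2, Col13a1, Col22a1, Lum and P4ha2 also kept their sign and missed the threshold.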

How the results depend on the processing

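Of 152 named collagen changes past the threshold, 119 kept their direction and call under every alternative in which their gene was tested. The filter at 10 CPM tested 122 of the 152, and the fits without a Day 15 library tested 146 or 148. The 152 include calls of Col4a4 and Col10a1. Over 3740 recomputed values, 3652 kept both, 88 lost the call and 0 reversed. Of the 152, 26 lost the call with RNA integrity as a covariate, 9 with quantile normalization, 2 with edgeR and 0 with median-of-ratios scaling. With RNA integrity as a covariate, 13 collagen genes in place of 28 were called from Day 12 to Day 15 under +Fgf, and 25 in place of 39 synthesis genes between conditions on Day 15. Over all 13845 tested genes the +Fgf step then had 1878 higher and 1713 lower, in place of 3759 and 4140. The Day 15 comparison had 3564 and 2798, in place of 5267 and 4238. In that fit Lum in the Day 12 to Day 15 +Fgf step was 0.44 in place of -2.07 on the log2 scale, and the cause was not tested. Quantile normalization put the summed collagen level at 1581 CPM in place of 1648 on Day 10 and at 1904 in place of 1792 in Day 15 +Wnt.

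Leaving out each library gave 26 to 30 collagen genes for Day 10 to Day 12 +Fgf, 19 to 23 for Day 10 to Day 12 +Wnt, 25 to 29 for Day 12 to Day 15 +Fgf, 27 to 31 for Day 12 to Day 15 +Wnt, 26 to 27 and 30 to 32 for +Fgf against +Wnt on Day 12 and Day 15, and 27 to 31 for the interaction. Further calls lost on leaving out a library were those of Col5a3 to Day 12 +Wnt (log2 changes -0.96 to -0.68 without Day 10 replicate 1 or Day 12 +Wnt replicate 2 or 3), Col8a1 (-0.38 to -0.37, without Day 12 +Fgf replicate 3 or Day 12 +Wnt replicate 1) and Col13a1 (0.56 to 0.69, without Day 12 +Fgf replicate 2 or Day 12 +Wnt replicate 3) between conditions on Day 12, Col10a1 (-0.90 to -0.63, without Day 12 +Wnt replicate 2 or 3 or Day 15 +Wnt replicate 1 or 3) and Col15a1 (0.99 to 1.11, without Day 12 +Wnt replicate 2 or 3) from Day 12 to Day 15 +Wnt, and Col9a2 (-0.45 to -0.33) and Col22a1 (-0.88 to -0.65) in the interaction, each without any of 6 libraries. With replicate numbers as a block, 30, 22, 27, 30, 26, 32 and 31 collagen genes were called in the same order of comparisons and 0 of the 152 calls were lost. Deviations of same-numbered libraries correlated between -0.25 and 0.22, so the numbers do not show pairing. Members under 1 CPM, such as Col4a4 before Day 15, rest on a few reads per library.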
